A study of Saccharomyces cerevisiae with 10 samples.

Results

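The open chromatin of budding yeast (Saccharomyces cerevisiae) arrested in G2/M was described by 2 deposited ATAC-seq peak lists, 1 for cells with wild-type Orc4 and 1 for cells with the Orc4 insertion helix (IH) deletion. All peaks of both lists were taken, 2480 and 2457, which is 4937 of the 7774 peaks in the 4 lists of the series used here. The other 2 lists hold binding sites of the origin recognition complex (ORC). Each ATAC-seq list comes from 1 library, so there is no replicate spread and no test between the strains.

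The strain of each list is in conflict. The list with 2480 peaks, called list A, belongs to the sample labelled WT, while the name of the list itself says Mut. The list with 2457 peaks, called list B, belongs to the sample labelled Mut, while its own name says WT. The text of the study pairs lists and strains as the list names do. The lists carry no marker of the strain that was used here to settle this, so every difference is given as list A against list B and no direction between the strains is given.

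Both strains are MATa derivatives of W303-1a. Their shared alleles are can1-100, trp1-1, his3-11,15, ura3-1, ade2-1 and a leu2 allele with the mutations leu2-3 and leu2-112, of which all but can1-100 make the cells depend on a nutrient unless a marker restores it. In both, the endogenous ORC4 gene is driven by the galactose-dependent GALS promoter (GALS-ORC4-kanMX4) and ORC6 carries a MYC tag (ORC6-MYC-hphNT1). They differ in the copy placed at ura3-1 under the native ORC4 promoter, which is ORC4-URA3 in WT and orc4-IHΔ-URA3 in the mutant, so the WT control also lives on an integrated copy. Cells were moved from galactose to glucose medium for at least 18 h to deplete the endogenous Orc4 and were then held for 3 h in benomyl (20 µg/ml), a microtubule drug, to stop them in G2/M.

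In ATAC-seq a transposase cuts DNA that is not wrapped in nucleosomes, so places with many cuts are open. In budding yeast the best known open places are the nucleosome-depleted regions in front of genes and at replication origins. ORC, whose subunits are Orc1 to Orc6, binds origins inside such regions and helps to place the nucleosomes beside them. The insertion helix of Orc4 contacts DNA and takes part in the sequence preference of yeast ORC. Comparing the lists addresses whether the map of open chromatin differs between the strains.

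A peak is an interval in which cuts, each widened to 150 bp, exceeded the background. Its summit is the base with the most cuts, and its fold enrichment is the height there divided by the background. The fold enrichment and the p-value of a peak together fix the whole number of cuts in the 150 bp around the summit and the background used. This solved for 2479 of 2480 peaks in list A and 2456 of 2457 in list B, with a tolerance of 5% of the step from one whole number to the next. The genome-wide background was 43.4 cuts per 150 bp in list A and 41.9 in list B, so the libraries differed in depth by 1.04-fold. The median summit held 160 cuts in list A and 154 in list B. Scaled cuts below are cuts at the summit divided by the genome-wide background of the same library. Their intervals are exact binomial (Clopper-Pearson) at the 95% level and cover counting error only. Positions are 1-based in sacCer2, the build in the submitters' processing notes.

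The 2 maps were close in size. List A had 2477 peaks on the nuclear chromosomes and 3 on the 2-micron plasmid, list B had 2450 and 7, and neither list had a mitochondrial peak. Median width was 452 bp in list A (quartiles 249 and 752 bp) and 419 bp in list B (235 and 736 bp). The widest peaks had 3019 and 3039 bp, and 50 and 58 peaks stood at the minimum of 150 bp. Nuclear peaks covered 1389565 bp in list A and 1333545 bp in list B, or 11.6% and 11.1% of the chromosomes as far as the lists reach. The covered length was 1.04-fold larger in list A. Depth differed by a like factor, and its part in the covered length was not tested. Of the 1577485 bp open in either list, 1145625 bp (72.6%) were open in both, which is 82.4% of the open length of list A and 85.9% of that of list B.

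Most open regions were matched peak for peak. Overlapping peaks formed 2101 groups, of which 1992 held exactly 1 peak of each list. These pairs took in 80.3% of the peaks of list A (Wilson 95% interval 78.7 to 81.8%) and 81.1% of those of list B (79.5 to 82.6%). A further 157 and 181 peaks lay in 109 groups with several peaks on at least 1 side. The remaining 331 peaks of list A and 284 of list B met no peak of the other list. Those were narrow and low. Their median width was 232 bp in list A and 200 bp in list B, against 504 and 462 bp for peaks that met one. Their median summit held 98 and 95 cuts, against 177 and 168. The nearest peak of the other list was a median of 1403 bp away for list A and 1365 bp for list B.

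Cuts at paired summits followed each other over the whole range. The median log2 ratio of scaled cuts, list A over list B, was −0.01, with quartiles of −0.20 and 0.19. The SD over pairs was 0.36, against 0.16 from counting alone, so pairs differed by more than the counting error of the 2 libraries, and without replicates this remainder cannot be divided between strain and library. Past 1.5-fold were 188 pairs (9.44%), 131 higher in list A (6.58%) and 57 higher in list B (2.86%). By fold enrichment, 149 pairs were past 1.5-fold (7.48%), 108 higher in list A (5.42%) and 41 in list B (2.06%). A pair needs a called peak in both lists, so these shares and the SD leave out the 331 and 284 peaks that met none.

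**Figure D1:**
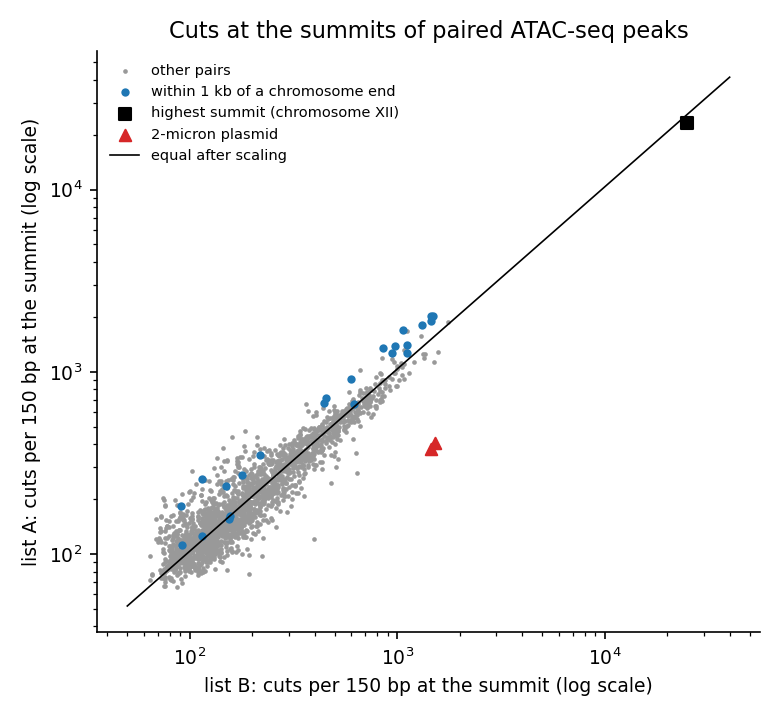
Cuts per 150 bp at the summit of each pair, list B on the horizontal and list A on the vertical axis, both on log scales. Each point is 1 pair, blue points are pairs within 1 kb of a chromosome end, red triangles are pairs on the 2-micron plasmid, and the line marks equal scaled cuts. Most pairs lie around the line, blue points mostly above it, and both plasmid pairs far below it.

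In the 5 pairs with the largest ratios of fold enrichment, the lower summit was mostly low for its list. It was below the first quartile (111 cuts in list A, 108 in list B) in the last 4 named here. At chrII:254489-255241 the summits held 121 cuts in list A and 396 in list B, and scaled cuts were 3.39-fold higher in list B (2.76 to 4.19). The summits there were 472 bp apart, and that of list A lay outside the interval of list B. At chrIV:946238-946874 the summits held 286 and 103 cuts, 2.68-fold higher in list A (2.13 to 3.39). At chrVII:828194-828831 they held 202 and 74 cuts, 2.63-fold higher in list A (2.01 to 3.49). At chrII:533266-533715 they held 78 and 194 cuts, 2.58-fold higher in list B (1.97 to 3.40). At chrXIII:372114-372675 they held 198 and 75 cuts, 2.55-fold higher in list A (1.94 to 3.37). In these last 4 regions the summits lay at most 61 bp apart, and the same place was cut more often in 1 library.

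Paired peaks had nearly the same width. The median width difference, list A minus list B, was 4 bp, with quartiles of −42 and 69 bp and a median size of 54 bp. List A was wider in 1045 pairs, list B in 929, and 18 were equal. A width ratio past 1.5 was found in 357 pairs (17.9%), of which 217 were wider in list A (10.9%) and 140 in list B (7.03%). The peak of list B lay inside that of list A in 716 pairs, the reverse held in 548, the intervals were identical in 6, and 722 were staggered. The median pair shared 86.3% of its joint length, and 160 pairs shared less than 50%.

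Edges moved more than summits. The left edge differed by a median size of 22 bp and the right edge by 20 bp, and 66.7% and 68.4% of pairs had them within 50 bp. Summits differed by a median size of 7 bp. They were identical in 302 pairs (15.2%), within 10 bp in 1209 (60.7%) and within 50 bp in 1599 (80.3%). The edges of list A leaned outward by a small amount: its left edge lay farther left in 999 pairs and farther right in 880 (median −1 bp), and its right edge lay farther right in 1031 and farther left in 837 (median 1 bp). The summit of list A lay to the right in 866 pairs and to the left in 824 (median 0 bp).

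**Figure D2:**
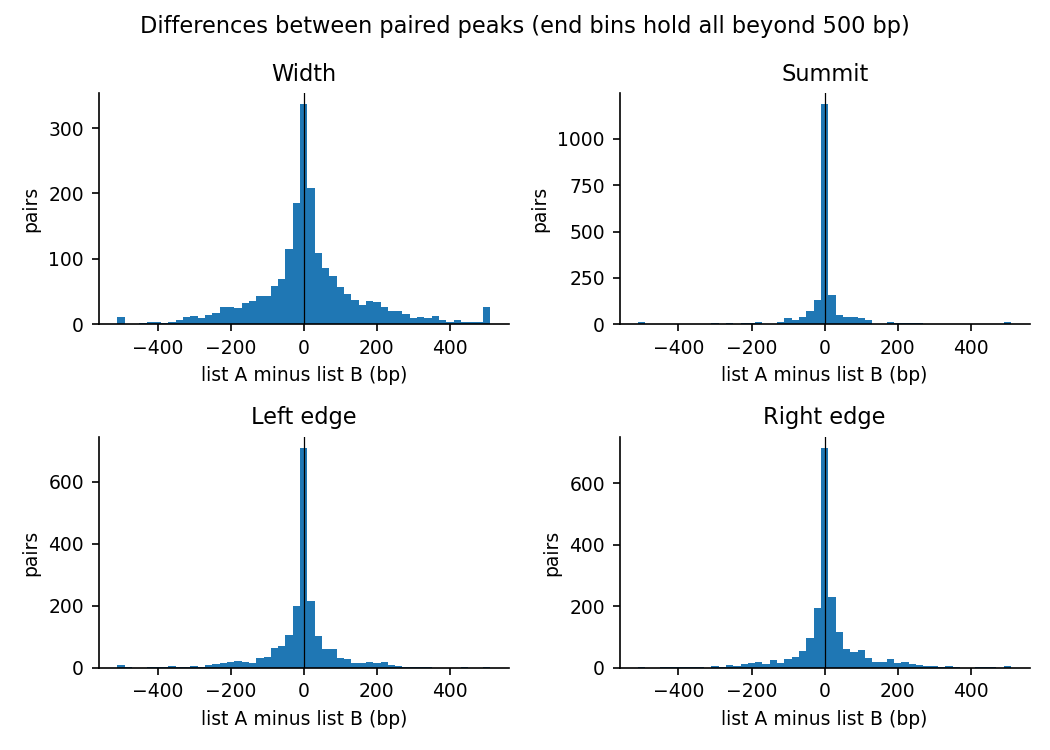
Differences of width, summit, left edge and right edge over 1992 pairs, list A minus list B in bp, in bins of 20 bp with values beyond 500 bp placed in the end bins. All 4 distributions centre near 0, and that of the summit is the narrowest.

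Width went with cuts. Across pairs, the width difference and the log2 ratio of scaled cuts had a Spearman correlation of 0.54 and a Pearson correlation of 0.52 (1992 pairs of the same 2 libraries). In the quintile of pairs with the lowest ratio the peak of list A was a median of 53 bp narrower (−53 bp), and in the middle quintile 3.5 bp wider. In the quintile with the highest ratio it was 97 bp wider. An interval ends where cuts fall below a threshold, so width and height of a called peak are not independent measures. From the lowest to the highest quintile by fold enrichment, the median summit shift fell from 10 to 2 bp. The median size of the width difference had no such trend, at 46 bp in the lowest quintile, 69 bp in the fourth and 48 bp in the highest, and the left edge differed by 18 and 22 bp in the lowest and the highest. Since median width in list A rose from 231 to 961 bp, the same differences made up 20.1% of the width in the lowest quintile and 5.39% in the highest, and shared length was 76.7% and 93.3%.

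The 5 largest width differences lay mostly on 1 flank. At chrIX:93074-94639 the peak measured 549 bp in list A and 1566 bp in list B, with summits 1 bp apart. At chrVIII:555199-557121 it measured 958 and 1923 bp, with summits 270 bp apart and right edges 20 bp apart. At chrX:414898-416183 it measured 1286 and 403 bp with summits 2 bp apart. At chrIX:355716-356843 it measured 1120 and 247 bp with summits 11 bp apart. At chrXI:74492-75988 it measured 1497 and 627 bp, with summits 72 bp apart, although scaled cuts there were 1.37-fold higher in list B (1.08 to 1.74). In 4 of the 5 regions the summit stayed within 72 bp while 1 edge differed by −814, −783, 881 and −866 bp.

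Summits far apart were counted by width, which limits them, since summits in narrow overlapping peaks cannot lie far apart. In 135 pairs the summits were over 150 bp apart, 63 with the summit of list A to the right and 72 to the left, and 21 of them were over 500 bp apart. In order from the narrowest to the widest quintile of pairs, 1, 13, 29, 30 and 62 such pairs were found, while the median size of the shift was 6, 8, 7, 5 and 7 bp. Median widths of the far pairs were 827 bp in list A and 776 bp in list B. Their intervals shared a median of 86.3% of the joint length, and so did those of the other pairs, which were narrower (481 and 447 bp). In the widest quintile of all pairs the shared length was 92.4%. The median size of the width difference was 93 bp in the far pairs and 53 bp in the others. Both edges were within 50 bp in 48 of the 135 far pairs and in 901 of the 1857 others. In those 48 the same open interval had its highest point at another place.

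**Figure D3:**
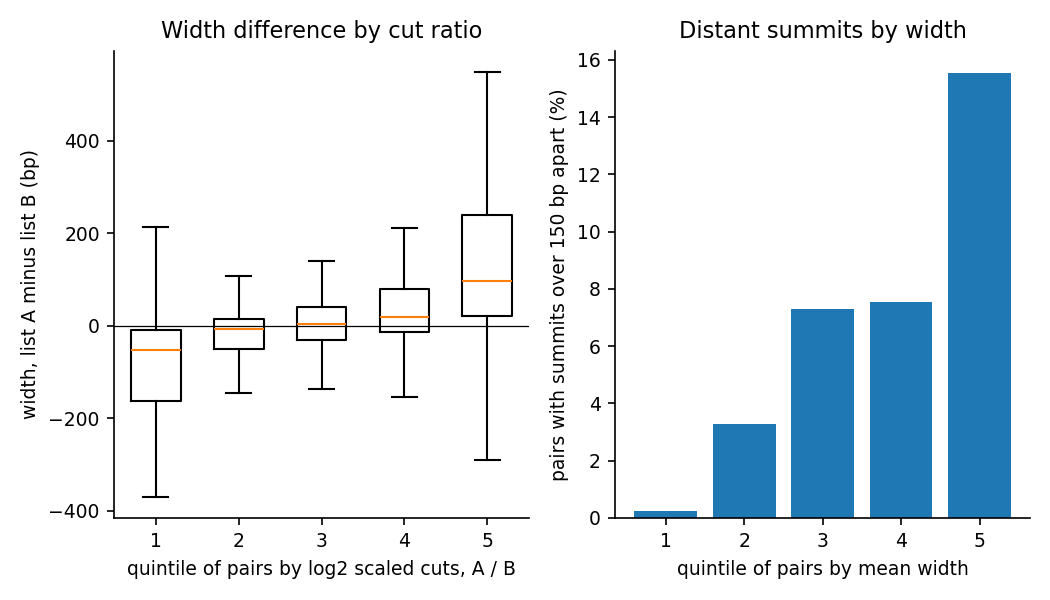
Left, width difference in bp (list A minus list B) for quintiles of the pairs ordered by the log2 ratio of scaled cuts, with boxes at the quartiles, a line at the median and whiskers to the farthest pair within 1.5 box lengths. Right, percent of pairs in each quintile by mean width whose summits were over 150 bp apart, rising from 0.251% to 15.5%.

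The largest shift was at chrX:180331-182287, where widths were 1943 and 1941 bp, edges 14 and 16 bp apart, cuts 323 and 321, and the summit of list A lay 965 bp to the left (−965 bp). At chrX:466243-467840, with widths of 1556 and 1598 bp and 196 and 223 cuts, it lay 937 bp to the left (−937 bp). At chrXIV:567202-568570, with 260 and 212 cuts, it lay 852 bp to the right. In each of these intervals the lists had their highest point at different places, and in the first region the heights were close, with a ratio of scaled cuts of 0.971 (0.830 to 1.14). At chrV:474009-475404 the summits were 765 bp apart with 158 and 245 cuts, and at chrVII:1011197-1012450 they were 716 bp apart with 215 and 325 cuts. In these last regions the summit was also 1.61-fold (1.31 to 1.97) and 1.57-fold (1.31 to 1.87) higher in list B.

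Splits and merges were few and mostly crossed short gaps. In 63 groups 1 peak of list A met several of list B, in 41 groups several peaks of list A met 1 of list B, and in 5 groups both sides had several. Where the division was into 2 pieces, the pieces lay a median of 99 bp apart in list B (71 to 766 bp, 59 groups) and 98.5 bp apart in list A (72 to 623 bp, 40 groups). The gap was at most 150 bp, the width given to 1 cut, in 42 and 32 of these. The summit of the undivided peak lay inside a piece in all 59 and all 40 groups, and in the higher piece in 51 and 35. Median scaled cuts were 5.19 for undivided peaks of list A against 4.08 and 2.46 for the pieces in list B. For undivided peaks of list B they were 4.94 against 4.55 and 2.56 in list A. The summit of the undivided peak and that of the higher piece lay a median of 11 bp apart where list B was divided and 6 bp where list A was, within 50 bp in 43 of 59 and 30 of 40 groups.

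One group held 5 peaks and 9 held 4, of which the 4 with the largest covered length are named with it. At chrVII:913061-915506, list A had 3 peaks of 403, 401 and 1213 bp and list B had 2 of 150 and 2222 bp. At chrII:235432-238151, both lists had 2 peaks, divided at different points, and the highest summit was at the same base, 236200, with 409 and 357 cuts. At chrXII:1011272-1013643 both lists again had 2 peaks divided at different points. At chrVII:546546-548443, 1 peak of 1898 bp in list A met 3 peaks of 359, 1059 and 171 bp in list B, and the highest summits held 733 and 726 cuts. At chrXV:722052-723636, 1 peak of 1481 bp in list A met 3 of list B, with 276 and 235 cuts at the highest summits. In the latter pair of regions a matched main summit stood between low flanks that were joined in list A and separate in list B.

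The splits with the most bp between their pieces went both ways. At chrXVI:279970-282048, 1 peak of 2028 bp in list A with 591 cuts met pieces of 480 and 828 bp in list B with 235 and 495 cuts, 766 bp apart. At chrXIII:266629-268031, 1 peak of 1403 bp with 410 cuts met pieces of 308 and 201 bp with 367 and 161 cuts, 715 bp apart. At chrI:180868-182605, 1 peak of 1706 bp with 277 cuts met pieces of 724 and 208 bp with 159 and 86 cuts, 676 bp apart. These are the 3 widest gaps inside a peak of list A. In the other direction, at chrXIV:618260-620343, pieces of 220 and 1241 bp in list A with 202 and 361 cuts, 623 bp apart, met 1 peak of 1981 bp in list B with 282 cuts. At chrX:337290-339851, pieces of 1577 and 438 bp, 446 bp apart, met 1 peak of 2341 bp, with 523 and 139 cuts against 746. At chrX:638491-640601, pieces of 1473 and 218 bp, 413 bp apart, met 1 peak of 2023 bp, with 450 and 121 cuts against 514. Only at chrXIV:618260-620343 among these 6 regions did a piece have more cuts than the undivided peak.

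Peaks were spread evenly over the 16 chromosomes. Their density ran from 18.4 to 23.9 per 100 kb in list A and from 18.5 to 23.0 in list B. List A had more peaks on 10 chromosomes, list B on 5, and both had 132 on chromosome XI. List A covered more bp on 15 chromosomes, and list B on chromosome XVI, where the ratio was 0.987. The share of open bp found in both lists was lowest on chromosome I (66.1%) and highest on chromosome II (75.6%), and the median summit shift was 5 to 9 bp on every chromosome.

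Chromosome XII had the highest ratios of list A to list B, in covered length and in scaled cuts. It is the chromosome that carries the ribosomal RNA genes, in a long tandem array. It had 217 peaks in list A and 206 in list B, covering 133535 and 118117 bp, a ratio of 1.13. The next ratios were 1.08 on chromosomes XV and XIII. On chromosome XII the difference of 15418 bp made up 27.5% of the whole difference in nuclear length, 56020 bp. The chromosome itself is 1072009 of 12029401 bp. Scaled cuts were higher in list A in 122 of 170 pairs (71.8%), with a median log2 ratio of 0.12, or 1.09-fold. On the other chromosomes the median ran from −0.10 on chromosome VIII to 0.08 on chromosome I. The share of pairs higher in list A ran from 38.8% to 66.7% on the same chromosomes. Over all 1820 pairs of the other chromosomes together 857 (47.1%) were higher in list A. Along chromosome XII the median was above 0 in 10 of 11 windows of 100 kb (medians −0.02 to 0.19, 8 to 22 pairs per window). The same count for windows of the other chromosomes is not given here, so the 10 of 11 has no share beside it. Left of the highest peak of the chromosome the median was 0.13 over 77 pairs, and right of it 0.12 over 92 pairs. By fold enrichment the median log2 ratio of chromosome XII was 0.02. The peak caller divides by the cuts in the 10 kb around a peak, the peak included, only where these exceed the genome-wide rate. That was so in both lists for 81 pairs of chromosome XII, and 63 of these had more scaled cuts around the peak in list A (median log2 ratio 0.16). In the 65 pairs with both backgrounds at the genome-wide rate, the cuts around the peak are not known. There the summit was higher in list A in 49, with a median log2 ratio of 0.14. Scaled cuts and fold enrichment nearly coincide in these pairs by construction. A sample-wide difference in the number of copies of a chromosome and a difference in its openness cannot be told apart from cuts.

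**Figure D4:**
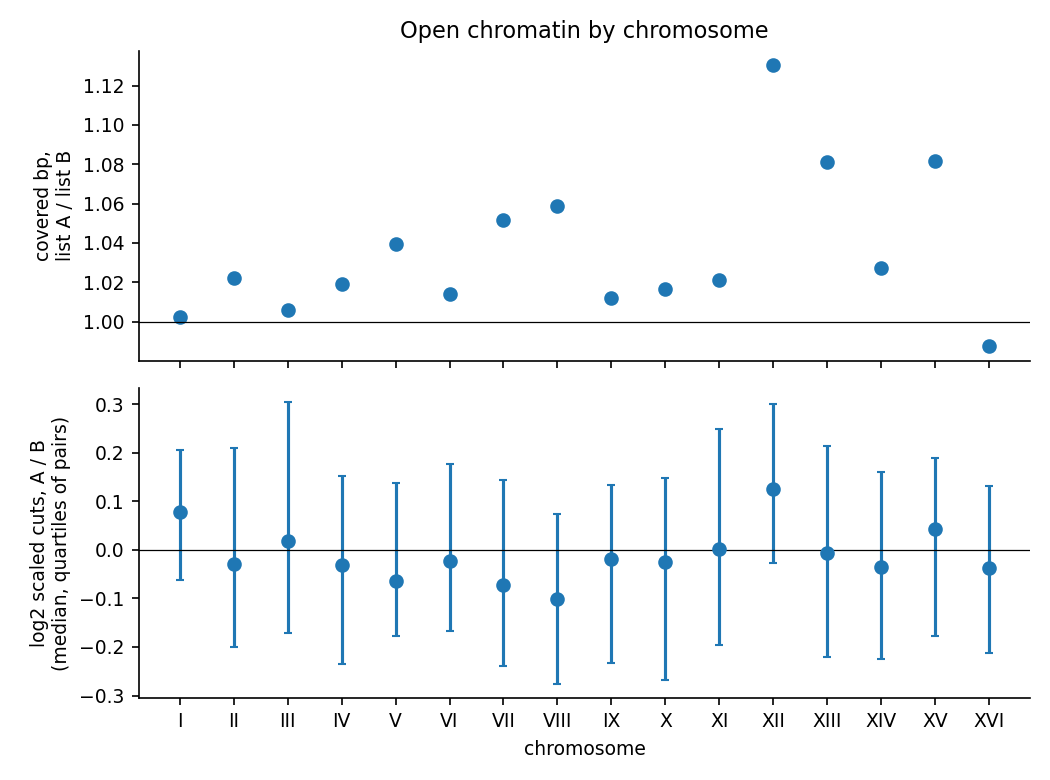
Top, covered length of list A divided by that of list B for each nuclear chromosome. Bottom, log2 ratio of scaled cuts, list A over list B, with a point at the median over the pairs of the chromosome and bars at the quartiles. Chromosome XII is highest in both panels, at 1.13 and 0.12.

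The highest summit of both lists was also on chromosome XII, at chrXII:459548-460885. It held 23253 cuts in list A and 24855 in list B at the same base, 460212, with edges 8 bp apart on each side and fold enrichments of 13.5 and 13.7. The 10 kb around it held 114898 and 120718 cuts, so scaled cuts over this window were 1.09-fold higher in list B (1.08 to 1.10). This is opposite to the chromosome as a whole. The 100-kb window that holds the peak did not lean to list A either, with a median log2 ratio of −0.02 and 6 of 15 pairs higher in list A. No gene is assigned to it, since gene positions in sacCer2 were not used here.

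The native 2-micron plasmid, a circle kept at many copies per cell, differed the most. The largest window of cuts over it held 12406 cuts in list A and 42242 in list B. After scaling, list B was 3.53-fold higher (3.46 to 3.60). The highest peak had its summit at the same base, 4381, in both lists, with 1745 and 4778 cuts, 2.84-fold higher in list B (2.68 to 3.00). Its fold enrichment over the plasmid's own background went the other way, 9.33 in list A and 7.53 in list B. In the 2 one-to-one pairs of the plasmid, fold enrichment was higher in list B, 2.50 against 2.19 and 2.39 against 2.17. List A had 3 peaks on the plasmid and list B 7. Fewer plasmid copies and less open plasmid cannot be told apart from cuts. The interval around this summit was undivided in list A (1670 bp) and in 2 pieces in list B (285 and 1386 bp).

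Pairs at chromosome ends also leaned to 1 list. This set was chosen after its values were seen. Chromosome ends of yeast carry repeated subtelomeric elements and are packed by the Sir silencing proteins. The left end was taken as base 1 and the right end as the last base of any peak in the 4 lists. A true right end may lie farther out, so some of these pairs may lie farther inside the chromosome. Within 1 kb of an end so defined lay 23 pairs, on 15 chromosomes, and 21 of them had more scaled cuts in list A. The lowest log2 ratio was −0.04, the median 0.43 (1.35-fold) and the highest 1.13. Past 1.5-fold to the side of list A were 7 of the 23 (30.4%), against 6.58% of all pairs. In the other bins of distance the median ran from −0.16 at 1 to 5 kb, where only 5 pairs lay, and −0.14 at 10 to 20 kb, to 0.00 beyond 160 kb.

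At the right end of chromosome X the summits held 2034 and 1458 cuts, 1.35-fold higher in list A (1.26 to 1.44). At the right end of chromosome IX they held 2012 and 1494 cuts (95% interval of the ratio 1.22 to 1.39), and at the left end of chromosome III 1377 and 979 cuts, 1.36-fold higher (1.25 to 1.48). At the left end of chromosome XII they held 911 and 600 cuts, 1.47-fold higher (1.32 to 1.63). The largest ratio, at the right end of chromosome XIV, came from 258 and 114 cuts, 2.18-fold (1.75 to 2.75). The ratio was below 1 at the right end of chromosome I, with 156 and 155 cuts (0.773 to 1.22), and at the left end of chromosome II, with 161 and 156 cuts (0.794 to 1.25). The interval spanned 1 at 5 of the 23 ends and lay above 1 at 18. Those 5 also take in the right ends of chromosomes II and XII and the left end of chromosome V. The intervals cover counting error only, and the same count over all pairs was not made. They are narrower where cuts are many, and the median summit of the 23 held 722 cuts in list A, against 177 over all nuclear pairs.

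By fold enrichment the median log2 ratio at the ends was 0.17, with 20 of 23 pairs higher in list A, a value that rests on pairs of 2 kinds. In 10 pairs both backgrounds were above the genome-wide rate. In all 10 the scaled cuts in the 10 kb around the peak were higher in list A (median log2 ratio 0.25). That window includes the peak, so the values of window and summit are not independent. In the other 13 both backgrounds were at the genome-wide rate, and the median log2 ratio was 0.55. Scaled cuts and fold enrichment nearly coincide there by construction. Many subtelomeric elements are near copies of each other. Cuts at 1 end may come from another, and the ends are then not independent. The part that this or the alignment of repeats has in the difference was not tested.

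**Figure D5:**
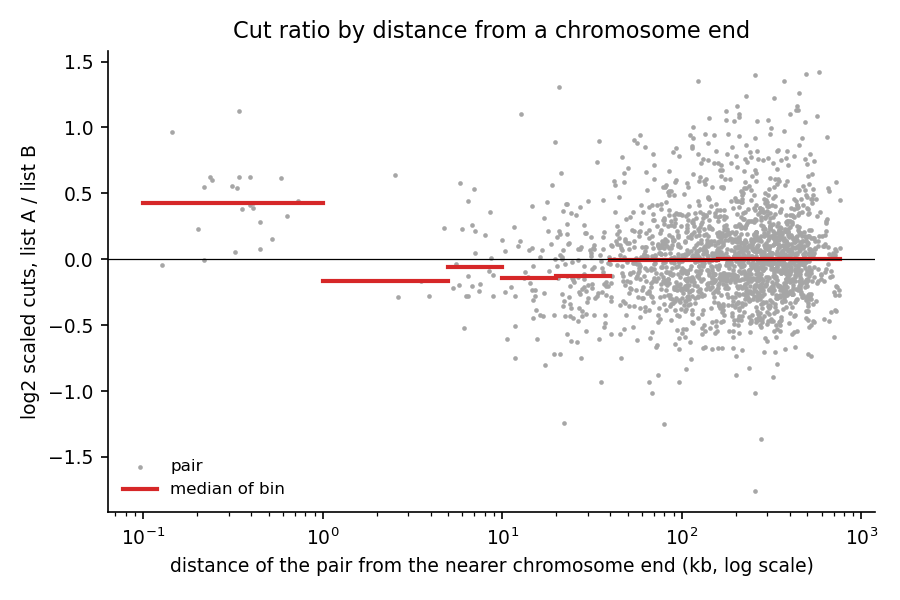
Log2 ratio of scaled cuts, list A over list B, for each nuclear pair (points) against its distance from the nearer chromosome end in kb on a log scale. The right end is the last base of any peak in the 4 lists. Red lines are medians of distance bins, at 0.43 within 1 kb and between −0.16 and 0.00 farther in.

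Chromosome ends also held the highest fold enrichments. Of the 20 highest peaks, 13 in list A and 10 in list B lay within 1 kb of an end, where each list had 26 peaks. The 5 merged regions with the highest fold enrichment were 4 ends and 1 place about 5 kb inside. At chrX:744906-745726 the fold enrichments were 23.5 in list A and 21.3 in list B, at chrIX:439215-439925 22.7 and 20.3, and at chrIII:292-1168 20.6 and 19.0. At chrXII:1-436 they were 20.5 and 14.0, and at chrXII:5498-6150 they were 23.1 and 15.5, with 1026 and 664 cuts. All 5 were higher in list A, and the latter pair of regions had the larger differences. The regions were chosen by their highest value in either list, which favours the list that is higher. The 4 ends are also among the pairs at chromosome ends given above, so they add no separate result.

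Gaps between open regions had nearly the same lengths. The median gap was 2998 bp in list A (quartiles 1263 and 5861 bp) and 3013 bp in list B (1266 and 5945 bp). When both lists were merged it was 2646.5 bp. Gaps of at most 150 bp numbered 127 and 132, and gaps over 10 kb 236 and 246. Matched to each other, 1609 gaps had the same neighbours in both lists, with a median length difference of 55 bp in size. A whole peak of list B lay in 236 gaps of list A, and a whole peak of list A lay in 284 gaps of list B.

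The 3 longest stretches with no peak in either list were chrX:484502-517377 (32876 bp), chrXV:128968-158945 (29978 bp) and chrIV:1095512-1125144 (29633 bp). The longest gaps of list A that a peak of list B broke were chrII:728848-760606, chrXV:170912-201886 and chrIII:263273-289266. The peaks inside them were low, with 85, 114 and 91 cuts and fold enrichments of 2.01, 2.68 and 2.15. The longest gaps of list B broken by list A were chrIV:1090412-1125144, chrXIII:701571-732140 and chrXIV:138558-167777, with peaks of 161, 76 and 88 cuts and fold enrichments of 3.65, 1.73 and 2.00. Only the peak on chromosome IV had as many cuts as the median peak of its list.

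The pairs were also set beside the ORC lists, in which the strain in the label and in the list name is the same. Of 1990 nuclear pairs, 839 met no ORC peak, 991 met only a peak of the Orc4-IH deletion list (2219 peaks), 27 only a WT peak (618 peaks), and 133 met both. The open regions differed in size between these classes: median width in list A was 395 bp for pairs with no ORC peak, 599 bp with the deletion list only and 716 bp with both. Of the 4 classes, pairs that met the deletion list only had the smallest share past 1.5-fold and the smallest relative width difference. Their median log2 ratio of scaled cuts was −0.02, 6.16% were past 1.5-fold against 9.35% of all nuclear pairs, and the median width difference was 8.38% of the width. Pairs with no ORC peak were lower, with a median of 143 cuts in list A against 218, and 12.8% were past 1.5-fold, with a width difference of 15.3%. Pairs that met both lists had a median of 303 cuts in list A, and 9.77% were past 1.5-fold. Of the 27 pairs with a WT peak only, 18.5% were past 1.5-fold.

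Pairs that met both ORC lists had a median log2 ratio of 0.10 (quartiles −0.08 and 0.32), and 87 of 133 (65.4%) had more scaled cuts in list A. Without the 9 of them within 1 kb of a chromosome end the median was 0.09, with 78 of 124 (62.9%) higher in list A. Over all nuclear pairs 979 of 1990 (49.2%) were higher in list A. In the 27 pairs that met a WT ORC peak only the median was 0.15, and 0.07 without the 4 at chromosome ends. Summits over 150 bp apart were found in 12.0% of pairs that met both lists and 5.36% of those that met neither, and the former were wider.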

How the data were processed

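ATAC-seq was carried out on G2/M-arrested WT and mutant cells, 1 library each. Per the submitters' processing notes, the tools were Bowtie2 2.3.4.1, Picard and MACS2 2.1.1.20160309 with the build sacCer2. The list names read as MACS2 on single transposase cuts of uniquely aligned pairs, without mitochondrial and duplicate reads, with a p threshold of 0.01, cuts shifted by 75 bp and extended to 150 bp. The authors deposited per peak a position, a fold enrichment (a linear ratio over local background), −log10 p and q values and a score, a multiple of the −log10 p value that was not used. Reads per library are not in the lists.

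From these, the cuts at the summit and the background were solved with 1 added to both, as MACS2 does, and a Poisson p. All backgrounds above the genome-wide rate, 1175 and 1144, came out as whole cuts in 10 kb, within 0.1 of a cut. Peaks overlapping by at least 1 bp were grouped, and groups of 1 peak per list are pairs. Right ends of chromosomes were taken as the last base of any peak in the 4 lists. A 1.5-fold difference was the size called, with no test. The deposited ORC peak lists served only as positions. Regions named are the extremes of width difference, summit shift and fold enrichment ratio (5 pairs each), the 5 groups with the most peaks (ties by covered length), the 3 widest splits each way, the 5 highest regions, and the 3 longest gaps of the merged lists and of each list with a peak of the other inside. Members and rules were chosen with earlier results of these data known. The chromosome ends, the plasmid and the account of chromosome XII were added after seeing the data. Alternatives were a minimum −log10 q of 2, leaving out 10 kb at each end, joining peaks closer than 100 bp, leaving out the lower-ranked peaks of each list (fold enrichment below its median), and a 50% reciprocal overlap, with a width limit of 600 bp for summits, a 50% overlap of the smaller peak for splits and median centring for fold ratios. The calculation was tested on simulated data. Sequences and genes are not reported, since a sacCer2 genome was not used here. The tools were networkx 3.6.1, matplotlib 3.10.9, scipy 1.17.1, pandas 2.3.3 and numpy 2.4.6 under Python 3.11.15.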

Additional observations from a re-analysis of the deposited data

How the results depend on the processing

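Over 11 results, 51 alternative values were computed, of which 42 moved by less than their interval or 1.5-fold, 9 moved by more and 0 reversed. Most of these results are counts, sizes or shares without a sign, which could not reverse. Leaving out peaks whose fold enrichment was below the median of the list gave 1049 pairs in place of 1992, a median summit shift of 5 bp in place of 7, 5.05% of pairs past 1.5-fold in fold enrichment in place of 7.48%, 13 divided groups in place of 109, and median gaps of 6734 bp in list A and 6759 bp in list B. This setting removes peaks by its construction. It also left list A with more open bp on 10 of 16 chromosomes in place of 15. A reciprocal overlap of 50% gave a median edge shift of 19 bp in place of 21 and 5.58% of pairs past 1.5-fold. At chromosome ends, the median log2 ratio of 0.43 was 0.17 by fold enrichment, 0.48 without scaling and 0.55 over pairs whose background was the genome-wide rate. These 3 settings were chosen after seeing the data. No paired analysis was possible because each strain has 1 ATAC-seq library. With 1 library per list, strain and library cannot be told apart.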

Other observations

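Ratios of neighbouring pairs were weakly alike within the same 2 libraries. The log2 ratio of scaled cuts had a Pearson correlation of 0.10 over 262 neighbours at most 1.5 kb apart, 0.07 over 425 at 1.5 to 3 kb, 0.02 over 551 at 3 to 6 kb and 0.04 over 503 at 6 to 12 kb. Neighbours had the same direction in 54.2%, 53.4%, 50.1% and 51.5%. The cuts in the 10 kb around a summit are known in both lists for 861 of 1990 nuclear pairs. They differed past 1.5-fold in 5 of these, and in 1 more pair with a value in list A only, all higher in list A. These lay on chromosomes I, VI, XII, XV and XVI. The 2 on chromosome VI are neighbours. At chrVI:146720-148497 the summits held 380 and 144 cuts and lay 695 bp apart, with 5100 cuts in the 10 kb of list A and no excess over the genome-wide rate in list B. At chrVI:149569-150006, where 5135 and 3028 cuts were counted in the 10 kb, the summits held 182 and 163 cuts, a ratio of 1.08 (0.868 to 1.34). The part that the first peak has in the background of the second was not tested.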
